A study of Homo sapiens with 12 samples.

Results

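The nuclear-encoded genes of oxidative phosphorylation were examined in PC9, HCC827 and HCC4006 cells, 3 established lines from human lung cancers that carry EGFR mutations. Members were the rows of the expression table whose symbol begins as those of the subunits of complexes I to V do (NDUFA, NDUFB, NDUFC, NDUFS, NDUFV, SDHA to SDHD, UQCR, COX4 to COX8 and ATP5), with CYC1 and CYCS. Rows whose symbol ends like that of a pseudogene (147 rows) and the complex I assembly factors named NDUFAF (8 rows) were left out. This gave 95 members of 57905 rows, of which 85 are subunit genes, 3 are antisense RNAs, 2 are read-through transcripts, 4 are related by name and 1 is a second row of SDHD. By complex, the names place 43 members in complex I, 5 in complex II, 10 in complex III, 17 in complex IV and 19 in complex V, and the last is the cytochrome c gene CYCS. NDUFA4 is counted with complex I by its name, although its product is now known as a subunit of complex IV.

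RNA was sequenced in bulk from 12 libraries, 2 for each line and condition. DMSO cells received the solvent for 24 h, and cells labelled dormant were kept for 2 weeks in 100 nM osimertinib, which inhibits EGFR, together with 30 nM trametinib, which inhibits MEK. Both conditions were measured in each line, no DMSO group of the longer time is among the samples, and dish size also differed, so that drug, time and dish cannot be told apart. Plates were set up in duplicate, and nothing says that they came from separately grown cultures, so that p-values measure only the spread between these samples.

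Oxidative phosphorylation takes place in the inner mitochondrial membrane. Complex I oxidises NADH and complex II oxidises succinate, both pass electrons through ubiquinone to complex III, cytochrome c carries them on to complex IV, and complex IV reduces oxygen. The proton gradient that complexes I, III and IV build drives complex V, the ATP synthase. Most subunits are encoded in the nucleus and imported, the rest are encoded in mitochondrial DNA, and complex II is encoded in the nucleus alone.

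The second HCC827 DMSO library and the second HCC4006 dormant library stood apart from their partners. Over the 86 members tested, the SD of the log2 difference between both libraries of a group was 1.47 for HCC827 DMSO and 2.25 for HCC4006 dormant, against 0.223 to 0.324 in the other 4 groups. UQCRC1, a core subunit of complex III, had 343 and 11.9 FPKM (fragments per unit of transcript length and of sequencing depth) in HCC827 DMSO and 175 and 1.90 FPKM in HCC4006 dormant. UQCRQ, a small subunit of the same complex, went the other way in HCC4006 dormant, with 631 and 9112 FPKM. The 6 epithelial markers (EPCAM, CDH1, KRT7, KRT8, KRT18 and KRT19) were each at 1 FPKM or more in all 12 libraries. Their summed level was 1250 and 962.5 FPKM in these 2 libraries against 5730 to 22970 FPKM in the other 10. Of the leukocyte, endothelial and fibroblast markers, 8 of 9 were found, and 1 or 2 of the 8 reached 1 FPKM in each library. CD68 made up most of a sum of 5.54 to 29.8 FPKM in 11 libraries. CD3E was listed at 0 in all 12 libraries, and PTPRC, CDH5, COL3A1 and PDGFRA stayed below 1 FPKM. The endothelial marker VWF was at 3.05 FPKM in the second HCC4006 dormant library and at or below 0.135 FPKM in the other 11 libraries. A relative depth read from the spacing of low values was 39.1% of the first PC9 DMSO library for the second HCC4006 dormant library, on 11 values, and 70.3% to 110% for the rest. The part of these features in the results was not tested. Results are therefore given with all 12 libraries, and calls or differences also without these 2. The fit without these 2 leaves 1 library in HCC827 DMSO and 1 in HCC4006 dormant. These groups then have no spread of their own and are assumed to vary like the others. Calls from that fit in HCC827, in HCC4006, over lines or between lines are therefore not replicated in every group.

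The difference between the libraries of a group followed GC content across the members, as the plot of that difference against GC shows. Over 86 members, whose transcripts had a median GC content of 48.0%, Pearson's r between GC and the second minus the first library was -0.52 in HCC827 DMSO and -0.49 in HCC4006 dormant. It was 0.36 in PC9 DMSO, 0.61 in PC9 dormant, -0.34 in HCC827 dormant and -0.42 in HCC4006 DMSO, where the differences were small. The points of a plot share both libraries, and members are not independent. The dormant minus DMSO difference had r = 0.42 with GC in HCC827 and -0.49 in HCC4006, and -0.038 and -0.16 without the 2 libraries that stood apart.

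**Figure D1:**
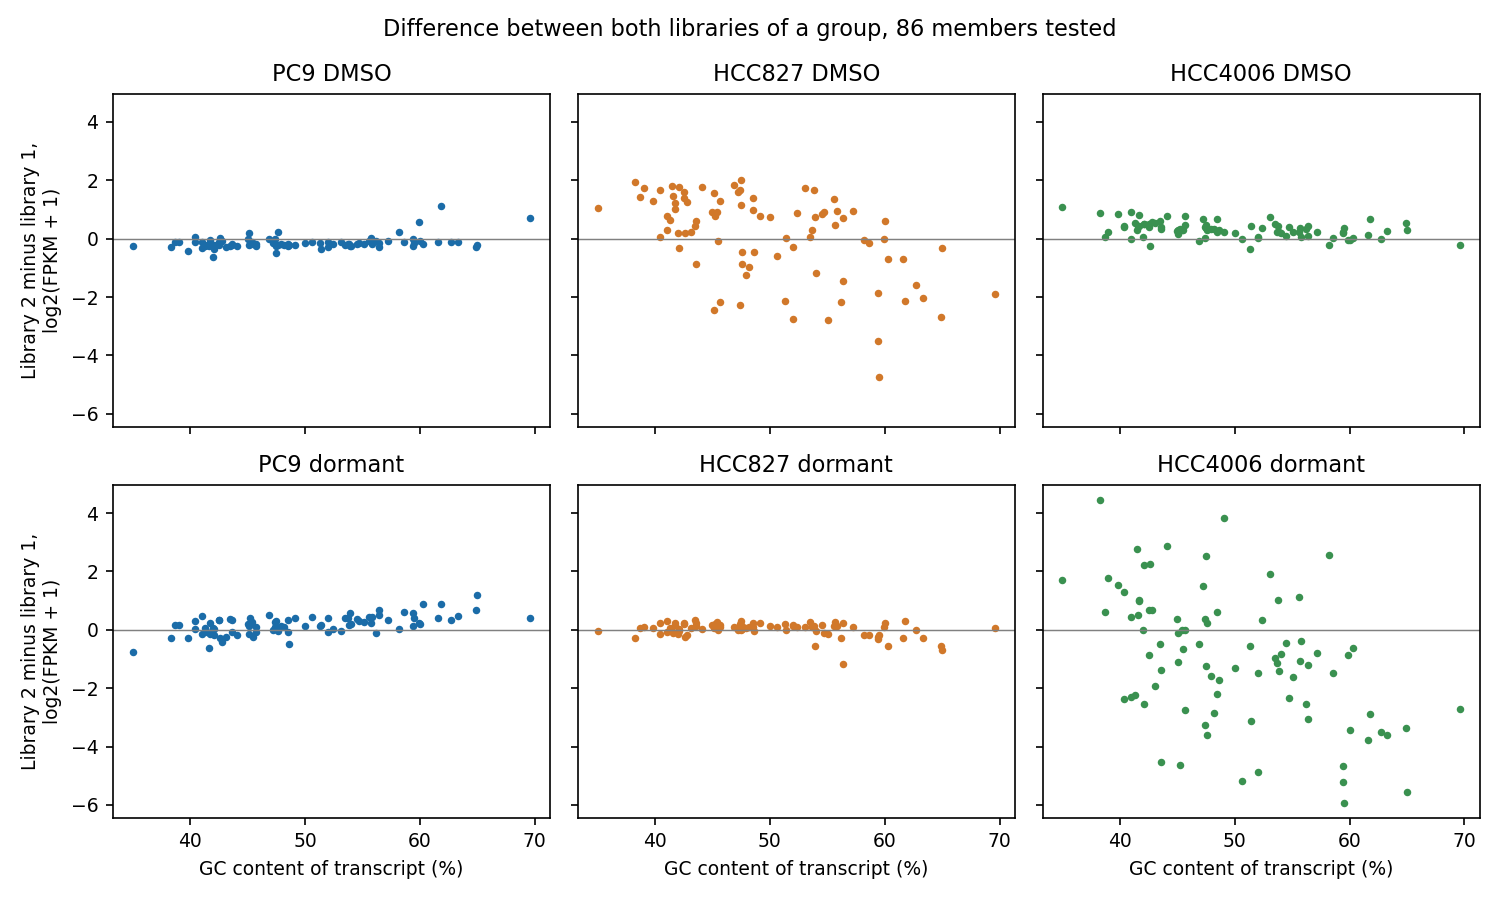
Second minus first library on log2(FPKM + 1) (vertical) against GC content of the longest transcript in percent (horizontal), 1 point for each of the 86 members tested, 1 panel for each group. HCC827 DMSO and HCC4006 dormant scatter with an SD of 1.47 and 2.25, against 0.223 to 0.324 in the other 4 groups, and their points fall from left to right.

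Of the 95 members, 86 had at least 1 FPKM in at least 2 libraries and were tested. These were 40 of complex I, 4 of complex II, 10 of complex III, 13 of complex IV, 18 of complex V and CYCS. The other 9 were at or below 1.09 FPKM in every library. All tests are limma's moderated test on log2(FPKM + 1) over all 14699 genes that passed that filter, with Benjamini-Hochberg adjustment, and a gene was called where adjusted p was below 0.05. Differences are dormant minus DMSO on that log2 scale, ± SE. They understate the change of genes with a low FPKM. Counts at an unadjusted p below 0.05 are given for members and for lists of related genes alone, with no share of all genes beside them.

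Averaged over the 3 lines, CYCS, the complex IV subunit gene COX8A and UQCRHL, a copy of the complex III gene UQCRH, fell in dormant cells, and no member rose. The 3 fallen genes are 3.49% of the 86 members, where 4.55% of all tested genes fell and 10.9% rose (15.4% in both directions). At an unadjusted p below 0.05, 1 member was higher and 9 were lower. The median difference of the members was -0.165, with 0.22 for all genes tested. In bulk RNA, less transcript in each cell and fewer cells with the higher level cannot be told apart. Without the 2 libraries that stood apart, 9 members rose and 13 fell, where 30.0% of all genes rose and 12.8% fell (42.9% in both directions), and the members' median was 0.0298 against 0.201 for all genes.

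A fibroblast marker, the collagen gene COL1A1, also moved with the condition. It was at 0.18 to 0.895 FPKM in the 4 PC9 libraries, at 0.55 and 0.36 FPKM in HCC827 DMSO and at 2.83 and 2.70 FPKM in HCC827 dormant cells. HCC4006 had 0.805 and 0.48 FPKM in DMSO and 7.45 and 12.2 FPKM in dormant cells. COL1A1 rose in the mean over lines (1.32 ± 0.20, adjusted p = 0.00296, limma) and in HCC4006 (2.69 ± 0.35, adjusted p = 0.00316). CD68, the other marker of that list that could be tested, gave -0.90 ± 0.67 (adjusted p = 0.376). Without the 2 libraries that stood apart, CD68 gave -1.71 in PC9, -0.697 in HCC827, 0.937 in HCC4006 and -0.489 in the mean over lines. COL1A1 gave -0.107, 1.28, 2.37 and 1.18 in the same order. The part of these genes in the members' results was not tested.

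In PC9, 0 of 86 members were called by limma, where 2.71% of all genes were (1.82% risen and 0.891% fallen), and at an unadjusted p below 0.05 there were 0 higher and 1 lower. In HCC827, CYCS was the 1 member called, where 4.5% of all genes were called, 1.44% fallen and 3.06% risen. In HCC4006, 0 members were called, where 6.07% of all genes were (4.88% risen and 1.18% fallen), and 2 were higher and 9 lower at an unadjusted p below 0.05. Without the 2 libraries that stood apart, the counts were 13 risen and 5 fallen in PC9 (13.1% and 8.65% of all genes, 21.7% in both directions), 3 and 5 in HCC827 (11.1% and 6.57%, 17.7% in both) and 1 and 6 in HCC4006 (14.9% and 3.72%, 18.6% in both). PC9 holds neither of these libraries, and its differences are the same in both fits, while the spread estimated for each gene is smaller in the second. HCC827 DMSO and HCC4006 dormant hold 1 library each in the second fit.

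No member passed limma's F test of a difference between the lines in their response, where 1.48% of all genes did, and 0 members had an unadjusted p below 0.05. The lowest adjusted p was 0.436. Without the 2 libraries, 1 member passed, NDUFA4, with an adjusted p of 0.0495, where 8.92% of all genes did and 13 members had an unadjusted p below 0.05.

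**Figure D2:**
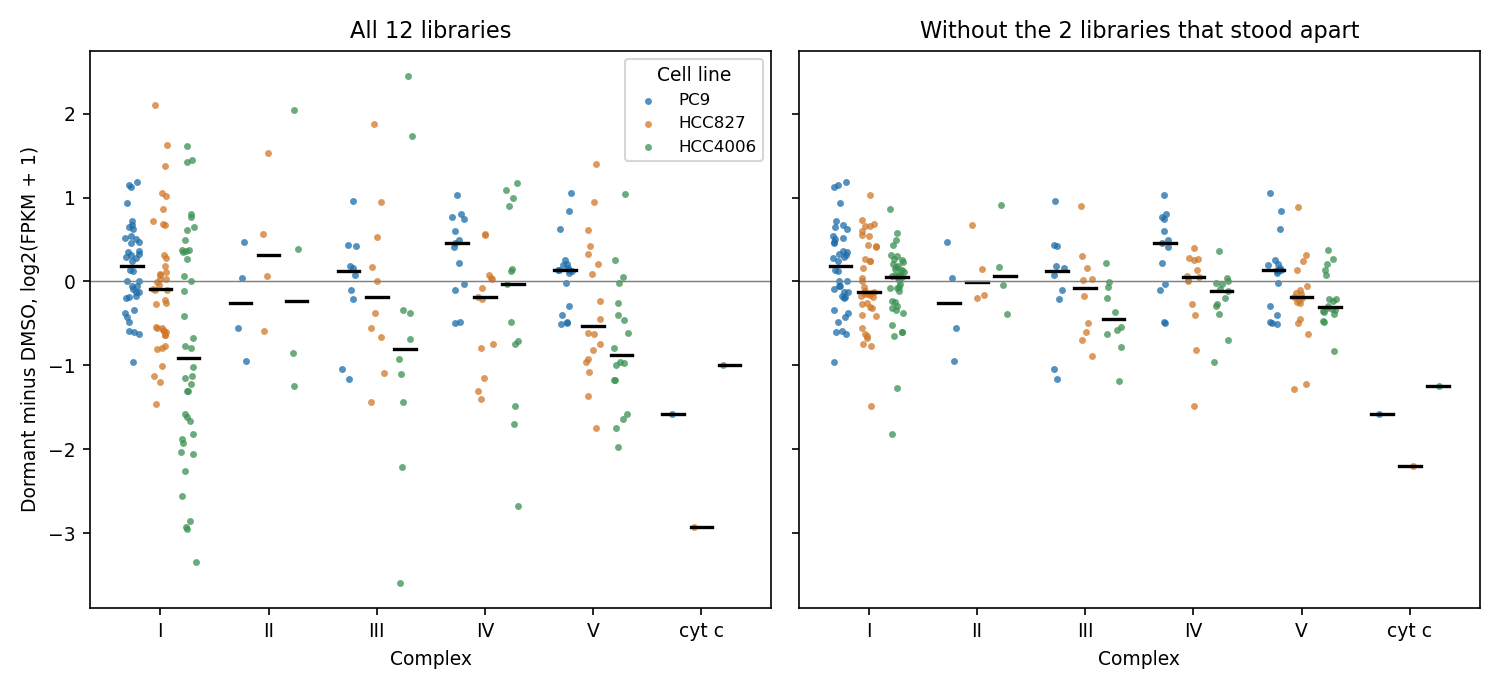
Dormant minus DMSO difference on log2(FPKM + 1) of each of the 86 members tested, by complex (horizontal) and line (colour), with all 12 libraries on the left and without the 2 libraries that stood apart on the right; bars are medians. In HCC4006 the median of complex I lies at -0.907 on the left and 0.0556 on the right, and the single cytochrome c gene lies below 0 in each line on both sides.

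The promoters of CYCS and COX8A, which were called in the mean over lines, and of UQCRH, the gene that the called UQCRHL copies, are shown as examples. In each line, these genes were lower in both dormant libraries than in both DMSO libraries. They are the 250 bases before the annotated start, 5′ to 3′ on the gene's strand, from RefSeq on GRCh38.p14, with motif matches in capitals. CYCS lies at chr7:25125261-25125510 on the minus strand, COX8A at chr11:63974370-63974619 on the plus strand and UQCRH at chr1:46303448-46303697 on the plus strand.
CYCS: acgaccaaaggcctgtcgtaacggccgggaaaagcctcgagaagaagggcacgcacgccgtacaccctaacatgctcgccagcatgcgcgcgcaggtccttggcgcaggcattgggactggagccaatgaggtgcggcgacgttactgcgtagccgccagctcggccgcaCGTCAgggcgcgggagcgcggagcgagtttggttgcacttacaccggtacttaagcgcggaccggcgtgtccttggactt
COX8A: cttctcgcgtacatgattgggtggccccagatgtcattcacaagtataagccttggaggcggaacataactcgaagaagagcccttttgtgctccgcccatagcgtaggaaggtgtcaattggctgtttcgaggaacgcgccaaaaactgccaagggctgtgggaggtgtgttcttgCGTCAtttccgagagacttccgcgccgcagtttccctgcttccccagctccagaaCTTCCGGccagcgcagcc
UQCRH: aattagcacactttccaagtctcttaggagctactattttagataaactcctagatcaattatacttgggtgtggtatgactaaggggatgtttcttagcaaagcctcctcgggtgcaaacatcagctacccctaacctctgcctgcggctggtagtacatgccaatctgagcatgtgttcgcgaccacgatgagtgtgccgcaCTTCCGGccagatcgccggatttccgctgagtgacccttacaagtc

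In the CYCS window the capitals mark TGACG, the core of the cyclic AMP response element, on the reverse strand at -80 from the start. In COX8A they mark the same motif at -73 and CCGGAAG, a motif of the ETS factor GABP, at -18, both on the reverse strand. In UQCRH they mark CCGGAAG on the reverse strand at -46. No matches shown overlap. Over windows from 250 bases before to 50 after the start, searched on both strands, the NRF1 motif (GCGC, any base, TGCGC) was found for 16 of the 73 members with a window (21.9%) and in 6.98% of 27305 genes. CCGGAAG was found for 20 members (27.4%) and in 12.2% of genes, AAGATGGC, a YY1 motif, for 13 members (17.8%) and in 3.52% of genes, and TGACG for 28 members (38.4%) and in 28.4% of genes. NRF1, GABP and YY1 are transcription factors known to bind promoters of many respiratory chain genes. The 27305 genes are all those with a window, whether or not they were expressed here. The 73 members include antisense RNAs and members too low to test. The shares thus do not compare members with other expressed genes. A match describes letters in the window and is no evidence of binding in these cells.

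Cytochrome c shuttles electrons between complexes III and IV and, once released from mitochondria, takes part in caspase activation. Its gene CYCS had the lowest difference of the 86 members in the mean over lines, in PC9 and in HCC827, but not in HCC4006. In PC9, CYCS was at 277 and 235 FPKM in DMSO and at 106 and 67.8 FPKM in dormant cells. HCC827 had 495 and 1373 FPKM in DMSO and 111 and 103 FPKM in dormant cells. HCC4006 had 864 and 1155 FPKM in DMSO and 419 and 597 FPKM in dormant cells. Both dormant libraries lay below both DMSO libraries in each line. The mean difference was -1.84 ± 0.33 (adjusted p = 0.00608, limma), and HCC827 alone gave -2.93 ± 0.57 (adjusted p = 0.020). PC9 gave -1.58 ± 0.57 (adjusted p = 0.257) and HCC4006 -0.997 ± 0.57 (adjusted p = 0.261). The mean call held when any 1 of the 12 libraries was left out, with adjusted p from 0.000761 to 0.0307. With the 3 lines as replicates, 1 difference each, it was lost (adjusted p = 0.452), and so was every other call among all genes. The HCC827 call held in 7 of those 12 fits. It was lost in the 5 without the first or second PC9 DMSO, the second HCC827 DMSO, or the first or second HCC827 dormant library, with adjusted p up to 0.165. Without both libraries that stood apart, the CYCS difference was -1.58 in PC9, -2.2 in HCC827 and -1.25 in HCC4006. The values of HCC827 and HCC4006 then rest on 1 library in 1 of their groups. CYCS has many near-identical processed pseudogenes, and how the authors assigned reads shared with them is not given in the sources used here.

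**Figure D3:**
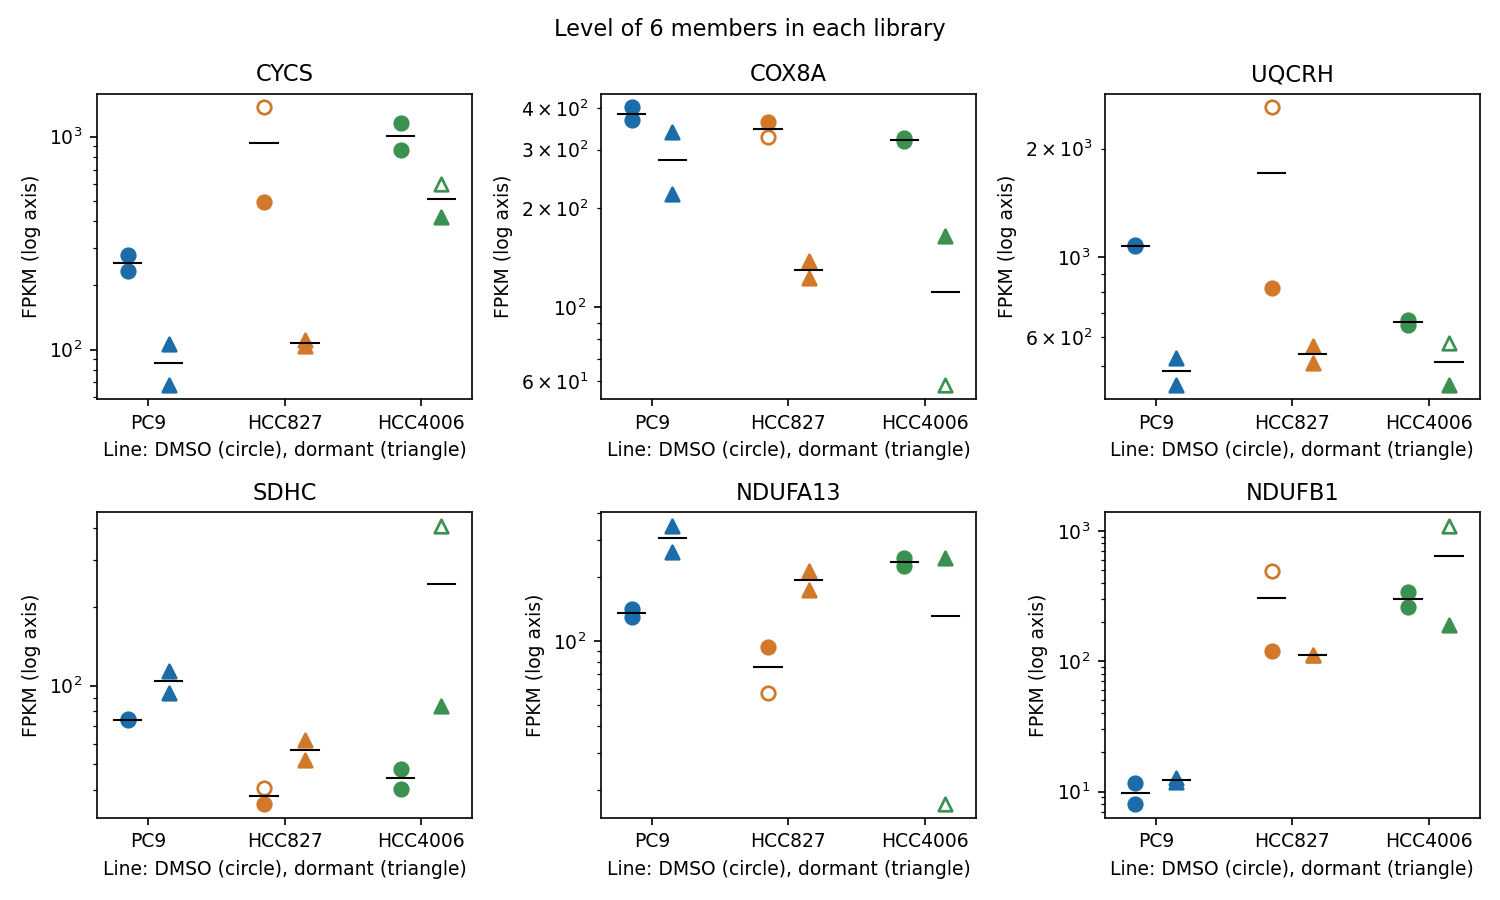
FPKM (log axis) of CYCS, COX8A, UQCRH, SDHC, NDUFA13 and NDUFB1 in each library, DMSO as circles and dormant as triangles, with bars at the mean of 2 libraries; open symbols are the 2 libraries that stood apart. CYCS, COX8A and UQCRH are lower and SDHC is higher in dormant cells of each line without overlap, and NDUFB1 lies at or below 12.8 FPKM in all 4 PC9 libraries.

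Across all members, 9 had both dormant libraries below both DMSO libraries in every line. These were NDUFAB1, UQCRH, UQCRHL, COX8A, ATP5C1, ATP5G1, ATP5G3, ATP5J2 and CYCS, 10.5% of the members, where 4.43% of all genes tested did so. SDHC alone was higher in this way, 1.16% of the members, where 9.12% of all genes were. Within PC9, 36 members lay above and 20 below (35.5% and 27.0% of all genes). Within HCC827, 12 lay above and 27 below (40.1% and 19.4%), and within HCC4006, 6 lay above and 31 below (30.4% and 15.8%). Counts in HCC827 and HCC4006 include the libraries that stood apart. There were 14 members (16.3%) without overlap in opposite directions in a pair of lines, where 13.3% of all genes tested were. They were all higher in PC9, and 10 of them were lower in HCC4006 and 4 lower in HCC827. None of the 14 passed the test of a difference between lines.

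Complex I, the NADH dehydrogenase, has a catalytic core made of some NDUFS and NDUFV subunits and of subunits encoded in mitochondrial DNA. Many accessory subunits complete the complex. None of its 40 tested members was called in any line or in the mean over lines with all libraries. Mean differences ran from -1.51 to 0.73, with a median of -0.194. The medians within lines were 0.186 in PC9, -0.092 in HCC827 and -0.907 in HCC4006. The HCC4006 median was 0.0556 without the 2 libraries that stood apart, and then the mean over lines had 6 risen and 3 fallen members of 40, where 30.0% of all genes rose and 12.8% fell.

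NDUFAB1 encodes the mitochondrial acyl carrier protein, which is also a subunit of complex I. It was at 192 and 166 FPKM in PC9 DMSO and at 130 and 126 FPKM in PC9 dormant cells. It was at 84.8 and 61.9 FPKM in HCC827 DMSO and at 47.0 and 52.0 FPKM in HCC827 dormant cells. It was at 511 and 626 FPKM in HCC4006 DMSO and at 233 and 277 FPKM in HCC4006 dormant cells. The dormant libraries were the lower ones in each line, with no overlap. The mean difference was -0.72 ± 0.25 (adjusted p = 0.0802), and -0.84 ± 0.13 (adjusted p = 0.000975) without the 2 libraries that stood apart.

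NDUFA13, also known as GRIM-19, is an accessory subunit of complex I. Its level was 142 and 130 FPKM in PC9 DMSO and 264 and 350 FPKM in PC9 dormant cells. In HCC827 it was 94.4 and 57.3 FPKM in DMSO and 214 and 175 FPKM in dormant cells. In HCC4006 it was 226 and 248 FPKM in DMSO and 247 and 17.2 FPKM in dormant cells. The groups did not overlap in PC9 and HCC827, and in HCC4006 the first dormant library lay between the DMSO libraries and the second far below. With all libraries the mean difference was 0.24 ± 0.56 (adjusted p = 0.795). Without the 2 that stood apart NDUFA13 rose by 0.75 ± 0.14 (adjusted p = 0.00262), and by 1.16 in PC9 and 1.03 in HCC827, while HCC4006 gave 0.06 ± 0.25 (adjusted p = 0.90).

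NDUFA4 was at 353 and 325 FPKM in PC9 DMSO and at 664 and 821 FPKM in PC9 dormant cells. In HCC827 the first DMSO library had 352 FPKM and the dormant libraries 385 and 449 FPKM, while the second DMSO library had 1122 FPKM. In HCC4006 it was at 934 and 1224 FPKM in DMSO and at 874 and 2130 FPKM in dormant cells. Only in PC9 did the groups not overlap, with a difference of 1.12 ± 0.64 (adjusted p = 0.592), which was called without the 2 libraries that stood apart (SE 0.20, adjusted p = 0.00444). Its relative NDUFA4L2 was at or below 0.40 FPKM in every library and was not tested.

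The smallest and largest mean differences of complex I were those of NDUFC2-KCTD14 (-1.51 ± 0.52, adjusted p = 0.0768) and NDUFB5 (0.73 ± 0.37, adjusted p = 0.205). NDUFC2-KCTD14 is a read-through of NDUFC2 into its neighbour, so that its value depends on how reads were shared with NDUFC2. NDUFC2-KCTD14 fell (-1.24 ± 0.26, adjusted p = 0.00503) and NDUFB5 rose (0.69 ± 0.19, adjusted p = 0.0191) without the 2 libraries that stood apart.

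Complex II, succinate dehydrogenase, consists of the flavoprotein SDHA, the iron-sulphur protein SDHB and the membrane anchors SDHC and SDHD. None of the 4 was called with all libraries. SDHC was at 73.8 and 74.3 FPKM in PC9 DMSO and at 113 and 94.0 FPKM in PC9 dormant cells. In HCC827 it was at 35.3 and 40.6 FPKM in DMSO and at 61.7 and 52.2 FPKM in dormant cells. In HCC4006 it was at 48.2 and 40.4 FPKM in DMSO and at 83.6 and 406 FPKM in dormant cells. The dormant libraries were higher in each line without overlap. The mean difference was 1.03 ± 0.38 (adjusted p = 0.0958), and it was 0.68 ± 0.14 (adjusted p = 0.00403) without the 2 libraries that stood apart.

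SDHB was at 163 and 139 FPKM in PC9 DMSO and at 91.8 and 65.5 FPKM in PC9 dormant cells. Its HCC827 values were 144 and 105 FPKM in DMSO and 130 and 127 FPKM in dormant cells, which overlap. Its HCC4006 values were 242 and 295 FPKM in DMSO and 203 and 61.6 FPKM in dormant cells. The mean difference was -0.71 ± 0.34 (adjusted p = 0.178), and SDHB fell by 0.50 ± 0.15 (adjusted p = 0.0227) without the 2 libraries that stood apart. SDHA gave 0.24 ± 0.48 (adjusted p = 0.756), and 0.05 ± 0.13 (adjusted p = 0.786) without these 2, and SDHD -0.25 ± 0.29 (adjusted p = 0.579), so that the subunits of this complex had mean differences of both signs.

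Complex III passes electrons from ubiquinol to cytochrome c. UQCRH, its hinge subunit, was at 1079 and 1073 FPKM in PC9 DMSO and at 441 and 525 FPKM in PC9 dormant cells. Its HCC827 level was 819 and 2601 FPKM in DMSO and 507 and 569 FPKM in dormant cells. Its HCC4006 level was 650 and 668 FPKM in DMSO and 442 and 579 FPKM in dormant cells. The groups did not overlap in any line. The mean difference was -0.99 ± 0.33 (adjusted p = 0.0684). UQCRH fell by 0.78 ± 0.11 (adjusted p = 0.000696) without the 2 libraries that stood apart.

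UQCRHL is a copy of UQCRH, and reads shared by the 2 genes make its separate value uncertain. It was at 15.0 to 56.5 FPKM in the 6 DMSO libraries and at 4.66 to 13.8 FPKM in the 6 dormant libraries, without overlap. UQCRHL fell with all libraries (-1.19 ± 0.34, adjusted p = 0.0399). The call held in 4 of the 12 fits that left out 1 library, those without an HCC827 DMSO or an HCC4006 dormant library, and adjusted p was up to 0.122 in the others.

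CYC1, the cytochrome c1 of the same complex, was at 16.0 and 35.7 FPKM in PC9 DMSO and 23.8 and 44.5 FPKM in PC9 dormant cells, and its mean difference was -0.54 ± 0.56 (adjusted p = 0.532), or -0.41 ± 0.28 (adjusted p = 0.261) without the 2 libraries that stood apart. UQCRB, a small subunit, had the largest mean difference of complex III, 0.65 ± 0.69 (adjusted p = 0.542). That value rests on the second HCC4006 dormant library, at 2337 FPKM against 106 FPKM in the first, and is -0.093 without it. It is 0.23 ± 0.19 (adjusted p = 0.361) without both libraries that stood apart.

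Complex IV, cytochrome c oxidase, takes electrons from cytochrome c, and its nuclear subunits come in part as paralogues with tissue-restricted use. COX8A, the common form of the smallest subunit, was at 403 and 369 FPKM in PC9 DMSO and at 220 and 338 FPKM in PC9 dormant cells. HCC827 had 364 and 327 FPKM in DMSO and 138 and 122 FPKM in dormant cells. HCC4006 had 319 and 325 FPKM in DMSO and 165 and 58.1 FPKM in dormant cells. The groups did not overlap in any line, and the gap was smallest in PC9. COX8A fell in the mean over lines by 1.20 ± 0.32 (adjusted p = 0.0327), a call that held in the 2 fits without an HCC4006 dormant library and was lost without any 1 of the other 10 libraries, with adjusted p up to 0.11. Without both libraries that stood apart it fell by 0.98 ± 0.15 (adjusted p = 0.000996).

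The remaining 12 tested members of complex IV were not called in the mean over lines with all libraries. COX4I1 gave -0.54 ± 0.72 (adjusted p = 0.635), with 664 and 17.3 FPKM in the HCC4006 dormant libraries, and 0.22 ± 0.12 (adjusted p = 0.176) without the 2 libraries that stood apart. COX6A1, COX6B1, COX7A2, COX7A2L and COX7B had mean differences between -0.13 and 0.32, and the sign of the first 3 and of COX7B changed with the scaling of libraries. In the mean over lines without the 2 libraries that stood apart, COX5B rose (0.49 ± 0.13, adjusted p = 0.0131), and COX5A fell (-0.66 ± 0.12, adjusted p = 0.00275) besides COX8A. Within lines, that fit had COX5B, COX6C, COX7A2 and COX7C risen in PC9, COX8A and COX5A fallen in HCC827 and COX8A fallen in HCC4006.

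The tissue-restricted forms were low. COX6A2 and COX7A1, forms of heart and skeletal muscle, were listed at 0 in all 12 libraries. COX4I2, a form known from lung and low oxygen, was listed at 0 in 11 libraries and at 1.09 FPKM in the second HCC4006 dormant library. COX8C did not pass 0.505 FPKM. COX6B2, known from testis, was at 0.25 to 1.25 FPKM in 11 libraries and at 10.5 FPKM in the second HCC4006 dormant library.

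Complex V is the ATP synthase, whose membrane ring is built of subunit c. ATP5G1, ATP5G2 and ATP5G3 encode the same mature subunit c behind different import sequences. None of the 18 tested members of complex V was called with all libraries. ATP5G3 was at 1224 and 1135 FPKM in PC9 DMSO and at 702 and 980 FPKM in PC9 dormant cells. In HCC827 it was at 616 and 754 FPKM in DMSO and at 237 and 294 FPKM in dormant cells. In HCC4006 it was at 637 and 639 FPKM in DMSO and at 358 and 72.2 FPKM in dormant cells. The dormant libraries were lower in each line without overlap, and the mean difference was -1.28 ± 0.39 (adjusted p = 0.0534).

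ATP5G2 was at 143 and 135 FPKM in PC9 DMSO and at 222 and 280 FPKM in PC9 dormant cells, and its mean difference was 0.33 ± 0.29 (adjusted p = 0.456). ATP5G1 had no overlap in any line and a mean difference of -1.26 ± 0.41 (adjusted p = 0.0634). Without the 2 libraries that stood apart ATP5G3 fell by 0.85 ± 0.14 (adjusted p = 0.0013), ATP5G1 fell by 0.72 ± 0.14 (adjusted p = 0.00372) and ATP5G2 rose by 0.62 ± 0.13 (adjusted p = 0.00431).

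The summed FPKM of the 3 subunit c genes was also split into shares. The ATP5G2 share was 9.97% and 10.2% in PC9 DMSO and 22.9% and 21.3% in PC9 dormant cells. It was 23.7% and 30.6% in HCC827 DMSO and 58.7% and 56.4% in HCC827 dormant cells. It was 20.5% and 22.1% in HCC4006 DMSO and 33.5% and 59.5% in HCC4006 dormant cells. The ATP5G2 share was higher in both dormant libraries of each line, without overlap, and no test was run on the shares. ATP5G3 held the largest share in all 6 DMSO libraries, between 49.9% and 85.4%. Among dormant libraries it stayed the largest in both PC9 libraries and in the first HCC4006 library.

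**Figure D4:**
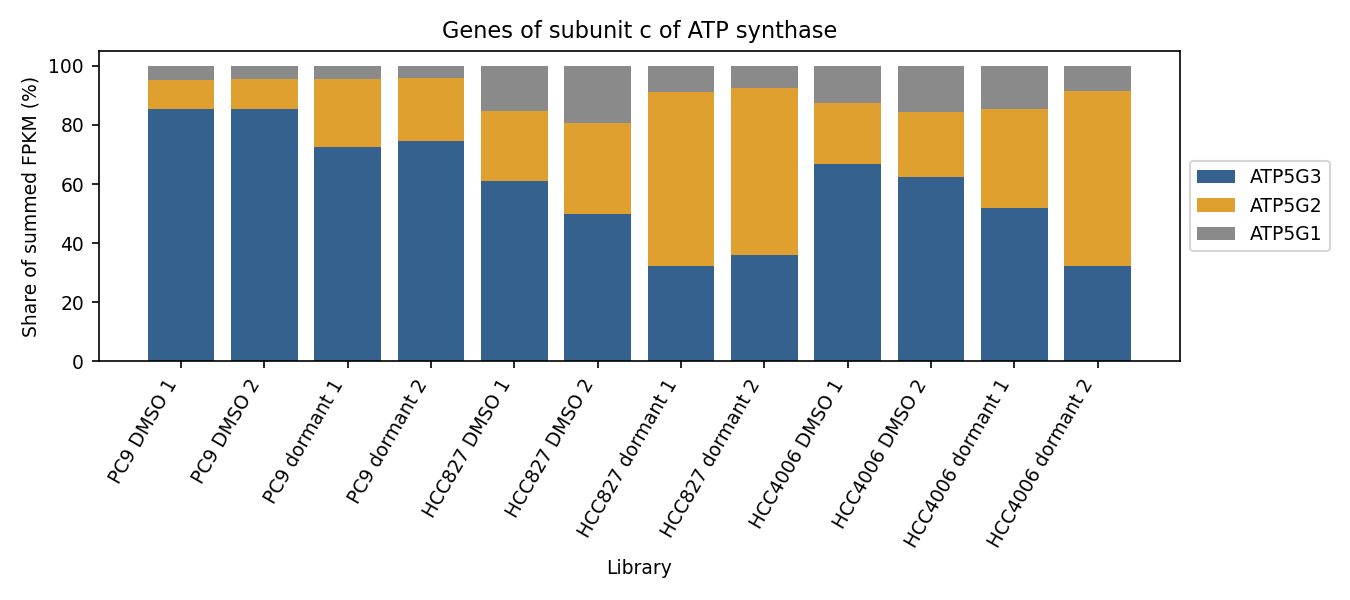
Share of ATP5G3, ATP5G2 and ATP5G1 in their summed FPKM, in percent, 1 bar for each library. The ATP5G2 part is 9.97% and 10.2% in PC9 DMSO and 22.9% and 21.3% in PC9 dormant libraries, and it is the largest in both HCC827 dormant libraries and the second HCC4006 dormant library.

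Untreated cells of the 3 lines differed in 6 members (6.98% of the 86) by limma's F test over the DMSO groups, where 12% of all genes differed, and 27 members had an unadjusted p below 0.05. The count was 60 members without the 2 libraries that stood apart, where 48.4% of all genes differed. NDUFB1, an accessory subunit of complex I, was at 11.6 and 8.03 FPKM in PC9 DMSO, at 120 and 490 FPKM in HCC827 DMSO and at 262 and 338 FPKM in HCC4006 DMSO (adjusted p = 0.00718). PC9 was the low line, and its dormant libraries, at 11.9 and 12.8 FPKM, were as low. COX7B2, a testis form of a complex IV subunit, was at 8.38 and 5.08 FPKM in PC9 DMSO and at or below 0.18 FPKM in both other lines (adjusted p = 0.000235). UQCRC2, a core subunit of complex III, was at 82.0 and 71.4 FPKM in PC9, 25.4 and 23.8 FPKM in HCC827 and 167 and 208 FPKM in HCC4006 DMSO (adjusted p = 0.00655).

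NDUFAB1 was likewise lowest in HCC827 and highest in HCC4006 (adjusted p = 0.00515). NDUFS6, of complex I, was at 286 and 243 FPKM in PC9 DMSO against 35.3 to 77.1 FPKM in DMSO cells of both other lines (adjusted p = 0.0384). ATP5C1, the gamma subunit of complex V, was at 71.1 and 108 FPKM in HCC827 DMSO and at 428 and 558 FPKM in HCC4006 DMSO (adjusted p = 0.037). With 1 library left out the calls of COX7B2, UQCRC2 and NDUFAB1 held in 12 of 12 fits, that of NDUFB1 in 10, and those of NDUFS6 and ATP5C1 in 2 each.

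Genes that assemble, regulate or feed the complexes were taken from lists made for this purpose. TFAM packages mitochondrial DNA and helps to start its transcription. TFAM was at 15.9 and 12.7 FPKM in PC9 DMSO and at 2.87 and 1.93 FPKM in PC9 dormant cells. In HCC827 it was at 15.4 and 30.0 FPKM in DMSO and at 6.71 and 6.08 FPKM in dormant cells. In HCC4006 it was at 16.4 and 26.9 FPKM in DMSO and at 14.6 and 19.9 FPKM in dormant cells, which overlap. TFAM fell in the mean over lines (-1.36 ± 0.27, adjusted p = 0.00997), in 12 of 12 fits with 1 library left out, and in PC9 (-2.18 ± 0.47, adjusted p = 0.0433), in 4 of 12. It was 1 of 9 tested regulators of mitochondrial biogenesis, of which 0 rose. PPARGC1A and PPARGC1B, coactivators of that process, were at or below 0.225 and 1.09 FPKM and were not tested, and NRF1 gave -0.13 ± 0.23 (adjusted p = 0.73). NRF1 fell (-0.39 ± 0.13, adjusted p = 0.0378) without the 2 libraries that stood apart, as did TFAM.

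The assembly factors of complexes I, II, IV and V (16, 4, 23 and 3 genes tested) had 0 calls in the mean over lines by limma, with 0 to 3 higher and 0 to 1 lower at an unadjusted p below 0.05 in each list. UQCC3, 1 of 6 assembly factors of complex III, fell (-0.89 ± 0.25, adjusted p = 0.040, held in 2 of 12 fits with 1 library left out). SLC25A5, an adenine nucleotide carrier and 1 of 7 tested carriers, fell (-1.01 ± 0.29, adjusted p = 0.0425, held in 4 of 12). The 17 genes of the citric acid cycle and pyruvate dehydrogenase and the 5 tested kinases and phosphatases of pyruvate dehydrogenase had 0 calls, with 0 and 1 higher and 1 and 0 lower at an unadjusted p below 0.05. PDK4 was at or below 1.19 FPKM and was not tested. ATPIF1, the inhibitor of complex V, gave a difference of -0.438 and was not called.

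Without the 2 libraries that stood apart, where 30.0% of all genes rose and 12.8% fell in the mean over lines, more of these genes were called. Of the assembly factors, 1 rose and 4 fell for complex I, 0 and 0 for complex II, 0 and 2 for complex III, 4 and 5 for complex IV and 0 and 1 for complex V. Of the citric acid cycle and pyruvate dehydrogenase list 3 rose and 4 fell, of the kinases and phosphatases 1 and 2, and of the carriers 1 and 3. ATPIF1 fell, with a difference of -0.445.

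The 13 subunits encoded in mitochondrial DNA had 0 calls with all libraries, and 8 were lower in PC9, 4 higher in HCC827 and 3 lower in HCC4006 at an unadjusted p below 0.05. Their median difference was -1.45 in PC9, 1.1 in HCC827 and -0.334 in HCC4006. Without the 2 libraries that stood apart, it was -1.45 in PC9, 1.19 in HCC827, -0.598 in HCC4006 and -0.391 in the mean over lines. In that fit the PC9 differences lay between -2.33 (MT-ND3) and -0.0938 (MT-CO2). Those of HCC827 lay between -0.359 (MT-CO2) and 2.78 (MT-ND3). HCC4006 had -1.32 (MT-ND1) as its lowest and 0.0571 (MT-ND6) as its highest. The nuclear members had medians of 0.142, -0.146 and -0.759 in PC9, HCC827 and HCC4006 with all libraries. Their medians without the 2 libraries that stood apart were 0.142, -0.128 and -0.0871 in the same order, and 0.0298 in the mean over lines. Libraries were made from mRNA selected by its poly(A) tail, per the kit named in the labels, which bears on how mitochondrial transcripts are captured, and this was not tested.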

How the data were processed

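Bulk RNA of 12 libraries was measured with a stranded mRNA kit, per the labels' protocols. The deposited values are FPKM per gene, which the authors computed and gave in steps of 0.01. The submitters' processing notes list the builds hg19 and GRCh37 and the tools DESeq2 1.10.1, Cufflinks 2.2.1 and STAR 2.5.1b, with no role or order. The table has 24 value columns, R1 and R2 for each library. What each holds is not stated, and both were averaged and counted as 1 library. Read counts were not analysed here, so that absolute depth is unknown and no counting interval is given. FPKM sums per library ran from 793883 to 1159352.

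In R 4.3.3, limma 3.58.1 was run on log2(FPKM + 1) (lmFit, eBayes with a trend, 1 coefficient per group, 6 residual and 3.84 prior degrees of freedom) for the 14699 genes that reached 1 FPKM in 2 or more libraries. The tests are two-sided, with Benjamini-Hochberg adjustment over all of them. They were also run on simulated data, where a gene had the same spread in every library and the same baseline and change in each line. That simulation holds no library that stands apart, so it cannot show how the tests behave with such libraries. Length and GC came from GENCODE v29, and promoter windows from RefSeq.

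Members and lists were chosen with earlier results of these data known, among them that 2 libraries stand apart. Named by rule were members called in any test, the smallest and largest mean difference of each complex, CYC1, CYCS, paralogues of complex IV and NDUFA4, list genes called in the mean, and PPARGC1A, PPARGC1B, TFAM, NRF1 and PDK4. SDHA, SDHD, UQCRH, UQCRC1, UQCRQ, NDUFA13, ATP5G1, ATP5J2, COX5A, COX5B, COX6C, COX7C, ATPIF1 and markers other than COL1A1 were named after their values were seen.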

Additional observations from a re-analysis of the deposited data

How the results depend on the processing

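The number of called members depended on the processing. The counts below stand without the share of all genes called under the same setting, so that they describe the processing alone. That share is given above for all 12 libraries and for the fit without the 2 that stood apart. In the mean over lines (3 members) it was 1 with no filter on low values, 6 with quantile normalization, 10 with median of ratios scaling, 22 without the 2 libraries that stood apart and 0 with the 3 lines as replicates. In PC9 (0) it was 18 with array quality weights, 18 without these 2 libraries and 12 with each line fitted alone. In HCC827 (1) it was 3 with array weights, 8 without these libraries and 0 with each line fitted alone. In HCC4006 (0) it was 1 with quantile normalization, 1 with median of ratios scaling, 1 from the R1 columns alone and 7 without these libraries. The difference between lines (0) had 1 and the untreated lines (6) had 60 without these libraries, and the untreated lines 50 with array weights. With 1 library left out the counts ran from 1 to 29 in the mean, 0 to 0 in PC9, 0 to 6 in HCC827, 0 to 54 in HCC4006, 0 to 51 between lines and 3 to 40 untreated. In each comparison the highest count came without the first HCC4006 dormant library (PC9 had 0 throughout), which leaves the second as the lone sample of its group, assumed to vary like the others. Without the second, the mean had 11, HCC827 had 6, untreated lines had 40 and HCC4006 had 0. The mean had 1 (CYCS) without any 1 of the 4 PC9, 2 HCC4006 DMSO or 2 HCC827 dormant libraries, HCC827 had 4 and untreated lines 14 without the first HCC827 DMSO library, and untreated lines had 3 without either PC9 DMSO library. Scaling moved the median of all genes in the mean over lines from 0.22 to 0.0337 (median of ratios) and 0.0282 (quantile), and all member calls there were falls under each scaling.

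Replicate numbers were not treated as pairs in the main fit. Deviations of same-numbered DMSO and dormant libraries had r = 0.0906 in PC9, 0.0372 in HCC827 and 0.168 in HCC4006 across genes. With 2 libraries a group, these values cannot show whether the samples were set up as pairs. With a replicate block within each line there were 1 call in the mean, 0 in HCC827 and 3 in untreated lines. Of the values of single named members under these alternatives, 549 kept their side of the threshold. With the same direction, 32 passed it newly and 34 lost it. The 549 include uncalled values whose sign changed by less than the SE. Another 7 uncalled values changed sign by the SE or more, and 0 called values changed sign. The cause of these changes was not tested. Low values set the depth limit: 9 members were too low to test.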
